A study of Macaca nemestrina with 15 samples.

Results

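The Toll-like receptor genes were followed in peripheral blood mononuclear cells (PBMCs) of pig-tailed macaques given oral islatravir (ISL), a nucleoside analog that inhibits the reverse transcriptase of HIV. The members were the genes TLR1 to TLR10, chosen by name. Of these 10 genes, 7 were found by their symbol among the 28865 features counted: TLR1, TLR2, TLR3, TLR4, TLR7, TLR8 and TLR10. All 7 passed the filter on low counts, as did 12880 features in all. TLR5, TLR6 and TLR9 were not analysed here. The libraries came from 5 female animals (*Macaca nemestrina*) that each received 30 mg/kg of ISL by mouth once a week for 12 weeks. RNA was sequenced from PBMCs taken before the first dose (pre-treatment), after 12 weeks of dosing (week 12) and after dosing stopped (week 18). By the paper's methods the last were taken 6 weeks after dosing stopped, while the legend of its design figure gives an earlier week. These time points gave 15 libraries. All groups shared the same animals, and no untreated animals were sequenced, so the drug and the passage of time cannot be told apart.

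Toll-like receptors are sensors of microbial molecules that cells of innate immunity, and B-cells, carry on their surface or in their endosomes. Most of them bind ligands of a given kind and then recruit the adaptor MYD88, or TICAM1 in the case of TLR3, while TLR4 can use both. This leads to activation of NF-kappa-B and interferon regulatory factors. In blood, the surface receptors TLR1, TLR2 and TLR4 and the endosomal TLR8 are best known from monocytes and other myeloid cells. TLR7 is known from plasmacytoid dendritic cells and B-cells, and TLR10 from B-cells.

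Between 5610597 and 10379572 counts fell on features in each library, with a median of 8871860. The 2 shallowest libraries were those of animal Z15303 at week 12 and week 18. PBMC identity was checked with marker lists. The 13 T-cell markers summed to 3427 to 5134 counts per 1000000 (CPM, scaled by library) in the 15 libraries, and 12 of 14 classical monocyte markers were found and summed to 2757 to 6618 CPM. For B-cells, 15 of 16 markers summed to 209.6 to 1184 CPM, and for plasmacytoid dendritic cells 11 of 12 summed to 65.1 to 163 CPM. The 11 of 14 neutrophil markers found summed to 218 to 647 CPM, and no marker found was at 0 in every library. The names of the libraries carry a date that the labels do not explain. These dates lie 56 or 57 days (week 12) and 84 days (week 18) after that of the same animal's pre-treatment library. Both intervals are shorter than the weeks in the labels. Animals Z15339, Z15303 and Z15408 share their dates, while Z15228 and Z13076 each have their own.

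The 7 receptor genes were on average lower at week 12 than before treatment, most of all TLR10 and TLR2, but none of them passed the test at either time point. Of the 7, 0 passed an adjusted p of 0.05 at week 12 (edgeR, quasi-likelihood F test, fitted with a term for each animal), beside 1 of all 12880 features (0.00776%), which was the immunoglobulin segment IGKV1OR2-108, named here after its value was seen. At week 18 against pre-treatment the counts were again 0 of 7 and 1 of 12880 (0.00776%), and at week 18 against week 12 they were 0 of 7 and 0 of 12880 (0%). DESeq2 and limma-voom, fitted with the same filter, also passed 0 of 7 in each comparison, and the smallest adjusted p of a receptor at week 12 was 0.267 by DESeq2 and 0.597 by limma-voom. The fitted changes at week 12 nevertheless had the same sign, though TLR3 and TLR7 were each lower in only 3 of 5 animals. The 7 genes come from the same animals and partly vary together, so they are not independent of each other. All 7 log2 fold changes were below 0, between −1.09 and −0.12 with a median of −0.34, where 49.8% of all features were below 0 and their median was 0.00054. An unadjusted p under 0.05 was found for 2 of the 7, TLR2 and TLR10, and for 4.69% of all features. TLR2, TLR4 and TLR10 were lower at week 12 in 5 of 5 animals, as were 3.45% of all features. With scaling by library totals only, TLR4 was lower in 4 of 5. No receptor had week 12 values that were all below its pre-treatment values, a pattern that 0.28% of features showed in either direction. At week 18, 6 of the 7 log2 fold changes were below 0 (51% of all features), but 0 of 7 were lower in 5 of 5 animals (3.49%) and 0 of 7 had an unadjusted p under 0.05 (5.85%). PBMCs are a mixture, so fewer cells of a type and less RNA per cell cannot be told apart in any of these values.

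**Figure D1:**
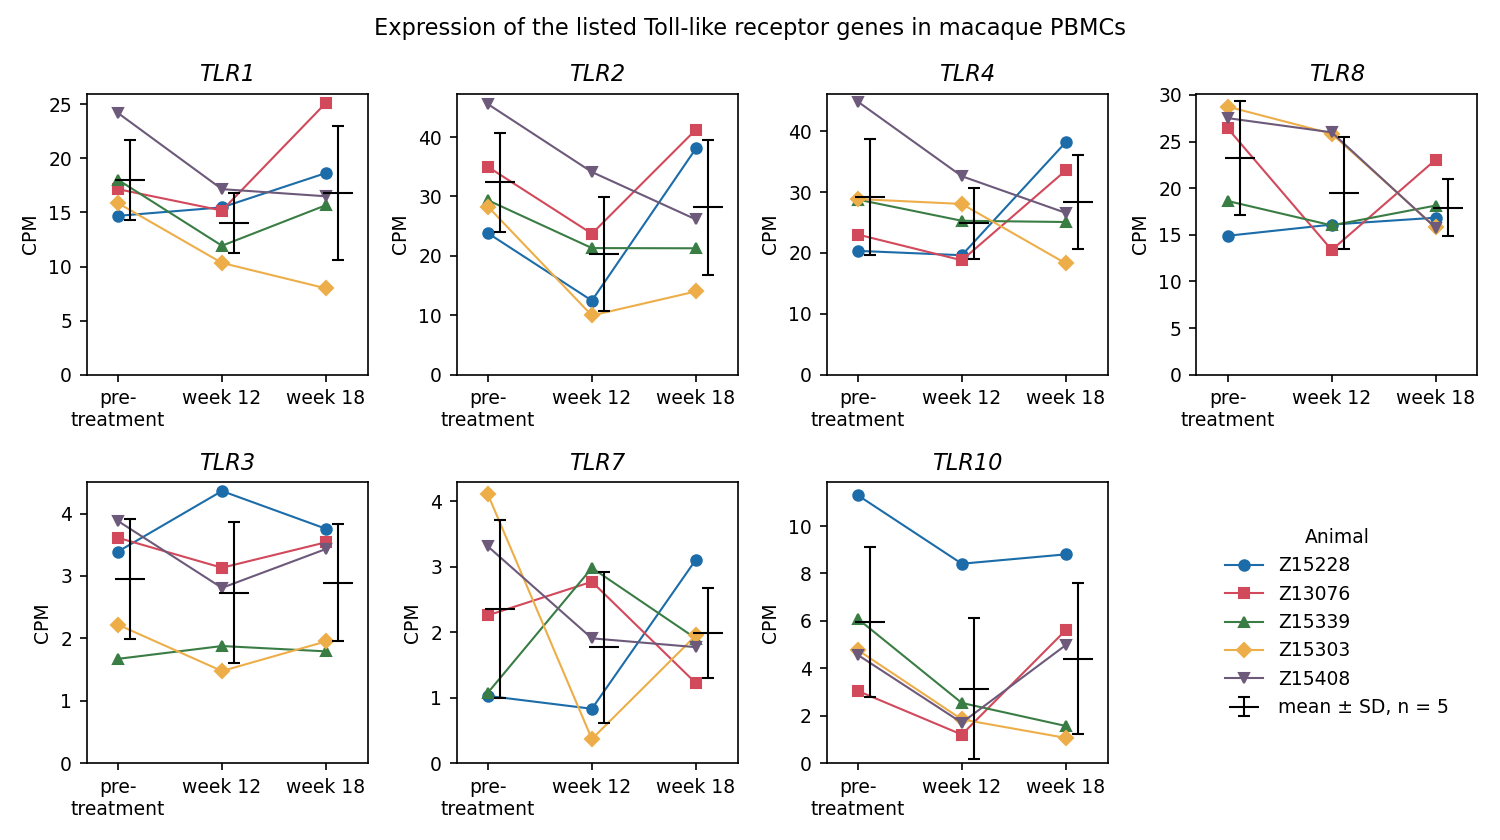
CPM (y axis, each panel from 0) of the 7 receptor genes at pre-treatment, week 12 and week 18 (x axis), with a line for each of the 5 animals and the mean ± SD in black. TLR2 and TLR10 go down in every animal from pre-treatment to week 12 (means 32.4 to 20.3 and 5.95 to 3.14 CPM), whereas at week 18 the animals lie on both sides of their pre-treatment values.

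TLR2, which binds bacterial lipoproteins together with TLR1 or TLR6, was measured with 54 to 399 counts per library. Before treatment it stood at 23.8 CPM in Z15228, 35 in Z13076, 29.4 in Z15339, 28.3 in Z15303 and 45.5 in Z15408. At week 12 the values of the animals in the same order were 12.5, 23.7, 21.3, 9.96 and 34.1 CPM. Each animal was lower than before treatment, and the groups overlapped because the animals started from different levels. Z15303 and Z15228 were the lowest at week 12, whereas Z15408 stayed above 3 of the 5 pre-treatment values. The mean was 32.4 ± 8.35 CPM at pre-treatment and 20.3 ± 9.64 at week 12 (n = 5, SD). The log2 fold change was −0.74 (standard error, SE, 0.23; 95% interval −1.22 to −0.26), a level 1.67-fold lower, with an adjusted p of 0.627 by edgeR. Fitted with no term for the animal, it came to −0.67 (SE 0.32, adjusted p = 1.00 by edgeR). The two-sided exact sign-flip permutation test within animals gave p = 0.0625, and with 5 animals it can give none smaller. It gives this value whenever all 5 animals change in the same direction, so it adds nothing to that count. TLR4 had the same value. When no filter was applied and 20732 features were tested, TLR2 passed (log2 fold change −0.73, adjusted p = 0.00128 by edgeR). The fold change was almost the same there, and the SE was smaller (0.15). With DESeq2 and a filter of at least 10 counts in all, TLR2 did not pass (adjusted p = 0.307 by DESeq2).

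At week 18, TLR2 was at 38.1 CPM in Z15228 and 41.3 in Z13076, above their pre-treatment values. It was at 21.3 in Z15339, 14 in Z15303 and 26.1 in Z15408, below theirs. The mean was 28.1 ± 11.4 CPM (n = 5, SD), and the log2 fold change against pre-treatment was −0.23 (SE 0.23, adjusted p = 0.930 by edgeR). It came to −0.48 without Z15228 and −0.030 without Z15303. Between week 12 and week 18 TLR2 was higher in 3 of 5 animals, and its log2 fold change came to 0.51 (SE 0.23, adjusted p = 1.00 by edgeR). It was the only receptor of the 7 with an unadjusted p under 0.05 in that comparison, against 2.17% of all features. In that comparison 1 of the 7 log2 fold changes, that of TLR8, was below 0 (50.7% of all features), and 0 of 7 receptors were lower in 5 of 5 animals (2.87%).

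TLR1, the partner of TLR2 in the recognition of triacylated lipopeptides, was measured with 45 to 212 counts per library. Its reads are counted only where they map to a unique place, and TLR1, TLR6 and TLR10 are close paralogs, so its count is uncertain to that extent. It was at 14.7 to 24.2 CPM at pre-treatment, 10.3 to 17.2 at week 12 and 7.98 to 25.1 at week 18. The means were 18.0 ± 3.70, 14 ± 2.80 and 16.8 ± 6.17 CPM (n = 5, SD). At week 12 it was lower in 4 of 5 animals, with Z15228 the exception. The log2 fold changes were −0.38 at week 12 (SE 0.18, adjusted p = 0.982 by edgeR) and −0.14 at week 18 (SE 0.18, adjusted p = 0.945 by edgeR). Both were smaller in size than those of TLR2, a difference between the genes that was not tested.

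TLR4, which binds lipopolysaccharide with its co-receptors LY96 and CD14, had 103 to 393 counts per library. Before treatment it stood at 20.3 CPM in Z15228, 23.0 in Z13076, 28.8 in Z15339, 28.9 in Z15303 and 44.9 in Z15408. In the same order it was at 19.6, 18.8, 25.3, 28.0 and 32.6 CPM at week 12. The values were lower in each animal, though the log2 change was −0.051 in Z15228 and −0.041 in Z15303, and the groups overlapped almost wholly. At week 18 it was at 38.2, 33.6, 25.1, 18.3 and 26.6 CPM. Z15228 and Z13076 were then above their pre-treatment values and the other 3 animals below theirs. The log2 fold change was −0.22 at week 12 (SE 0.21, 95% interval −0.65 to 0.22, adjusted p = 0.982 by edgeR). At week 18 it was 0.0073 (SE 0.21, 95% interval −0.43 to 0.44, adjusted p = 0.997 by edgeR), and its sign turned in some other fits.

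Since TLR2 and TLR4 are both monocyte receptors, the counts of TLR2 per count of TLR4 were taken within each library, where the scaling of the library cancels. The ratio was 1.17 in Z15228, 1.52 in Z13076, 1.02 in Z15339, 0.981 in Z15303 and 1.02 in Z15408 before treatment. At week 12 it was 0.635, 1.26, 0.843, 0.355 and 1.05 in the same order, lower in 4 of 5 animals. At week 18 it was 0.997, 1.23, 0.848, 0.767 and 0.983, lower than before treatment in 5 of 5. The lowest ratio, in Z15303 at week 12, rested on 54 counts of TLR2 and 152 of TLR4. The ratio was chosen after the values were seen and was not tested. The summed CPM of the classical monocyte markers moved as well. It was 2778 to 5097 before treatment. At week 12 it was 2757 to 4314 (lower in 5 of 5 animals) and at week 18 it was 3147 to 6618 (higher in 4 of 5). The falls at week 12 were small in Z15339 (2778 to 2757) and Z15408 (4361 to 4314). Of the 12 tested markers, 8 had a log2 fold change below 0 at week 12 (median −0.14) and 2 at week 18 (median 0.25). TLR2 per 1000 CPM of monocyte markers was 6.13 to 10.6 before treatment, 2.5 to 7.91 at week 12 and 3.96 to 6.76 at week 18, lower than before treatment in 4 of 5 animals at both time points. For TLR4 this quantity was lower in 2 of 5 animals at week 12 and in 3 of 5 at week 18. The 11 conventional dendritic cell markers, all found, summed to 289 to 429 CPM before treatment, 183 to 353 at week 12 and 242 to 355 at week 18, lower than before treatment in each animal at both later time points. Of these 11 markers, 9 had a log2 fold change below 0 at week 12 and 7 at week 18. The parts of the monocyte and dendritic cell shares in these values were not tested.

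TLR8, the endosomal receptor of single-stranded RNA in monocytes, had 89 to 259 counts per library. It was at 14.9 to 28.7 CPM at pre-treatment, 13.4 to 26.0 at week 12 and 15.7 to 23.1 at week 18, with means of 23.2 ± 6.11, 19.5 ± 5.99 and 17.9 ± 3.05 CPM (n = 5, SD). It was lower than before treatment in 4 of 5 animals at both time points, with Z15228 the exception each time. The log2 fold changes were −0.25 at week 12 (SE 0.19, adjusted p = 0.982 by edgeR) and −0.33 at week 18 (SE 0.19, adjusted p = 0.872 by edgeR). Its mean, unlike those of the other 6 receptors, was lower at week 18 than at week 12. From week 12 to week 18, 2 of 5 animals went lower and 3 higher. That step had a log2 fold change of −0.078 (SE 0.19, adjusted p = 1.00 by edgeR).

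TLR10, a B-cell receptor that can pair with TLR2 and whose ligands are less well known, had the fold change of largest size among the 7. It was measured with 6 to 110 counts per library. The limit that close paralogs set on the count of TLR1 holds for TLR10 as well. Before treatment it stood at 11.3 CPM in Z15228, 3.05 in Z13076, 6.09 in Z15339, 4.77 in Z15303 and 4.57 in Z15408. In the same order it was at 8.41, 1.20, 2.54, 1.85 and 1.71 CPM at week 12. All 5 animals were lower, and 4 of them were below every pre-treatment value, whereas Z15228 remained above 4 of the 5. The mean was 5.95 ± 3.18 CPM at pre-treatment and 3.14 ± 2.98 at week 12 (n = 5, SD). The log2 fold change was −1.09 (SE 0.37, 95% interval −1.88 to −0.31), a level 2.13-fold lower, with an adjusted p of 0.743 by edgeR. With no term for the animal it came to −0.91 (SE 0.59, adjusted p = 1.00 by edgeR). The two-sided exact sign-flip permutation test gave p = 0.0625, again the smallest possible and fixed by all 5 animals being lower. With no filter, TLR10 passed (log2 fold change −1.08, adjusted p = 0.0155 by edgeR), again on a smaller SE (0.27). With DESeq2 and at least 10 counts in all it did not (adjusted p = 0.517 by DESeq2).

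At week 18 the animals diverged in TLR10. It was at 8.81 CPM in Z15228, 5.61 in Z13076, 1.57 in Z15339, 1.06 in Z15303 and 4.98 in Z15408. Z13076 and Z15408 were above their pre-treatment values, and Z15339 and Z15303 were at their lowest of the 3 time points, on 14 and 6 counts. The mean was 4.41 ± 3.18 CPM (n = 5, SD). The log2 fold change against pre-treatment was −0.47 (SE 0.37, adjusted p = 0.900 by edgeR) and that against week 12 was 0.62 (SE 0.39, adjusted p = 1.00 by edgeR). The former came to −0.85 without Z13076, −0.17 without Z15339 and −0.21 without Z15303.

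The B-cell markers moved with TLR10 at week 12. Their summed CPM was 343 to 1184 before treatment, 209.6 to 628 at week 12 and 249.9 to 528 at week 18, lower than before treatment in 5 of 5 animals at both later time points. The log2 fold changes of all 14 tested B-cell markers were below 0 at both time points, with medians of −0.95 at week 12 and −0.87 at week 18. The adjusted threshold was passed by 0 of the 14 in edgeR at either time point. In DESeq2 it was passed by 9 of them at week 12, beside 26 of all 12880 features, and by 9 at week 18, beside 43. TLR10 per 1000 CPM of B-cell markers was 9.55 in Z15228, 8.88 in Z13076, 7.68 in Z15339, 8.96 in Z15303 and 10.7 in Z15408 before treatment. In the same order it was 13.4, 5.75, 7.24, 5.19 and 5.68 at week 12, and 16.7, 20.6, 3.21, 4.26 and 18.1 at week 18. The pre-treatment values lay close together, and the later ones spread to both sides of them. Across the 15 libraries of the 5 animals the log2 CPM of TLR10 followed that of the summed markers with Pearson's r = 0.71 and Spearman's rho = 0.67, with r = 0.59 without the 2 libraries farthest from the median and r = 0.64 within animals. These points share animals and the scaling of their library. The part of the B-cell share in the TLR10 values was not tested.

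**Figure D2:**
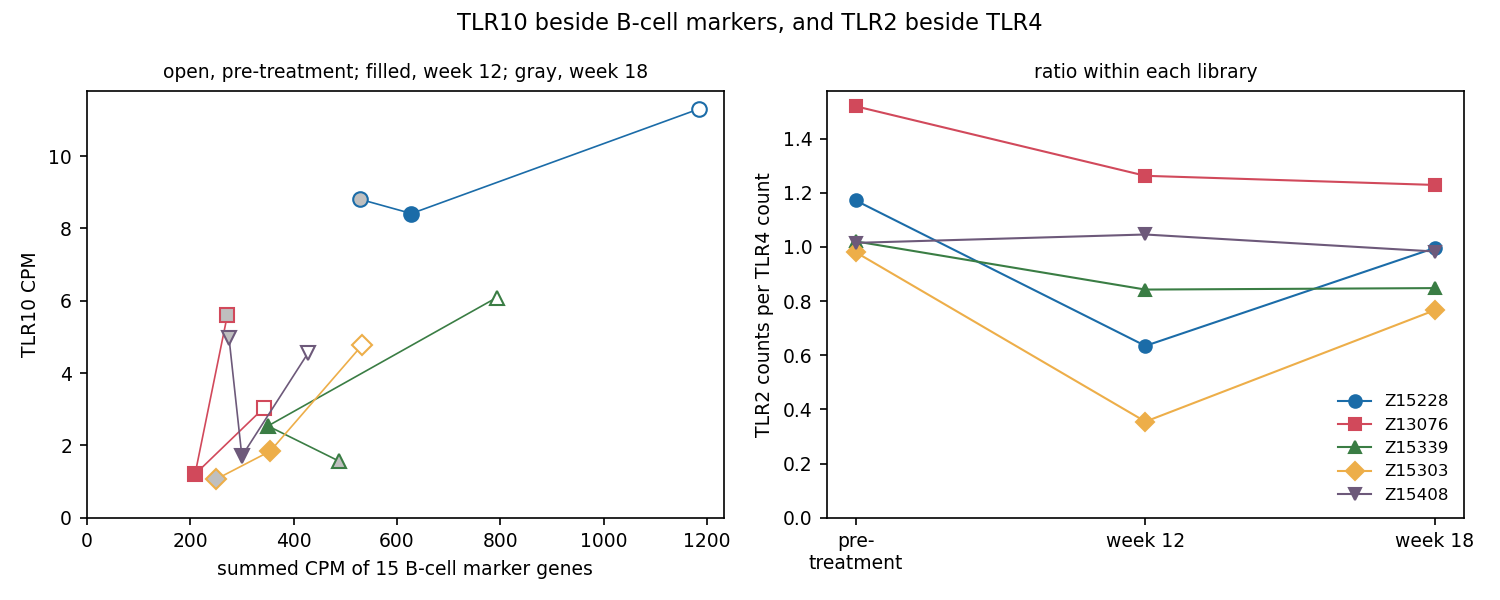
Left, TLR10 CPM (y axis) against the summed CPM of 15 B-cell marker genes (x axis) in the 15 libraries, with lines that join the 3 time points of an animal. Right, counts of TLR2 per count of TLR4 (y axis) by time point, from 0.981 to 1.52 before treatment, 0.355 to 1.26 at week 12 and 0.767 to 1.23 at week 18.

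TLR7, an endosomal receptor of single-stranded RNA, was the member measured with the widest error, on 2 to 37 counts per library. It was at 1.03 CPM in Z15228, 2.26 in Z13076, 1.07 in Z15339, 4.11 in Z15303 and 3.31 in Z15408 before treatment. At week 12 the values in the same order were 0.831, 2.77, 2.98, 0.369 and 1.91 CPM, and at week 18 they were 3.11, 1.22, 1.90, 1.95 and 1.77 CPM. No direction was shared. Z15303 had the highest value before treatment and the lowest at week 12, where 2 counts (exact 95% Poisson interval 0.242 to 7.22, counting error only) stood against 37 (26.1 to 51.0). Z15339 went the other way. The log2 fold change was −0.34 at week 12 (SE 0.50, 95% interval −1.39 to 0.71, adjusted p = 0.982 by edgeR) and −0.18 at week 18 (SE 0.50, 95% interval −1.22 to 0.87, adjusted p = 0.972 by edgeR). Both intervals are wide and include 0. The changes of the animals at week 12 differed among themselves, with an SD of 1.53 on the log2 scale. The summed plasmacytoid dendritic cell markers were at 72.3 to 148 CPM at pre-treatment, 101 to 163 at week 12 and 65.1 to 149.6 at week 18.

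TLR3, the endosomal receptor of double-stranded RNA, was at 1.67 to 3.88 CPM at pre-treatment, 1.48 to 4.36 at week 12 and 1.79 to 3.76 at week 18, on 8 to 42 counts. Z15339 and Z15303 were the 2 lowest animals at each time point. The log2 fold changes were −0.12 at week 12 (SE 0.25, adjusted p = 0.991 by edgeR) and −0.036 at week 18 (SE 0.25, adjusted p = 0.991 by edgeR).

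**Figure D3:**
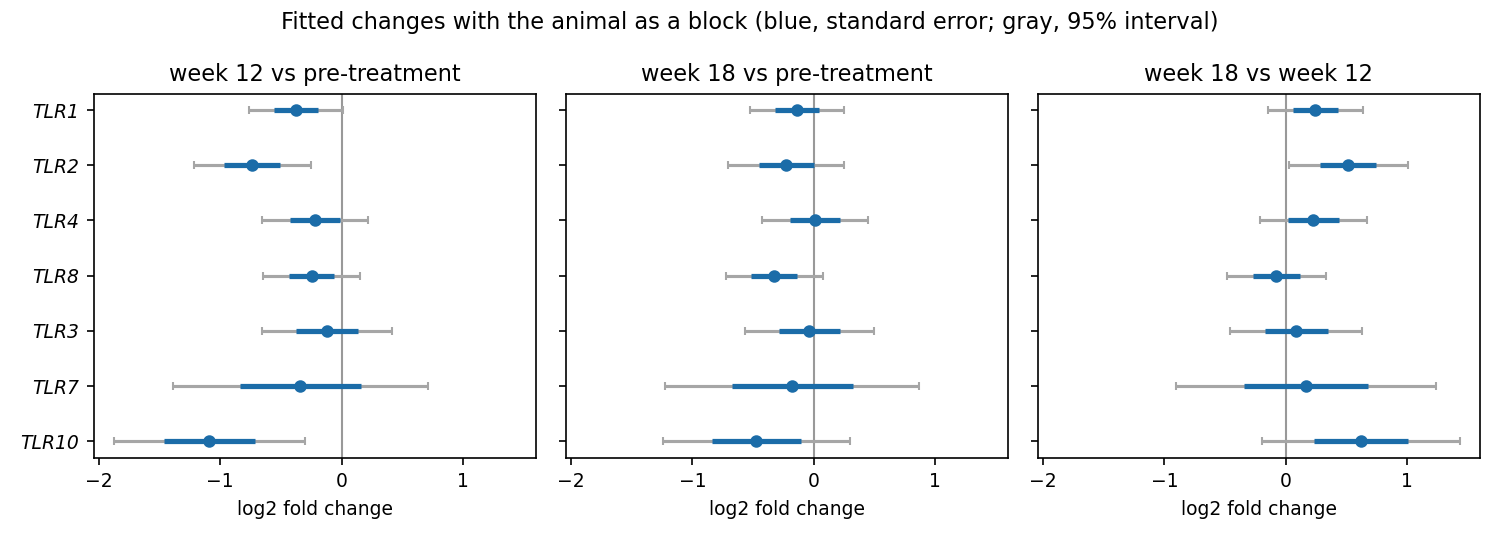
Log2 fold changes (x axis) of the 7 receptor genes in the 3 comparisons, fitted with the animal as a block (blue, SE; gray, 95% interval). At week 12 the intervals of TLR2 (−1.22 to −0.26) and TLR10 (−1.88 to −0.31) lie below 0 before adjustment. At week 18 against pre-treatment all 7 intervals include 0, and at week 18 against week 12 that of TLR2 (0.022 to 1.00) lies above 0.

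The myeloid receptors (TLR1, TLR2, TLR4 and TLR8) were then set against the receptors of B-cells and plasmacytoid dendritic cells (TLR7 and TLR10), each as the mean log2 CPM change of its genes in an animal. At week 12 the myeloid receptors were lower in all 5 animals, with changes of −0.20 in Z15228, −0.50 in Z13076, −0.36 in Z15339, −0.57 in Z15303 and −0.36 in Z15408. The mean was −0.40 ± 0.14 (n = 5, SD). The other pair changed by −0.33, −0.46, 0.053, −2.05 and −1.02 in the same order, a mean of −0.76 ± 0.82. As a mean over genes, the myeloid change was thus the more even among animals. The pair had a value near 0 in Z15339 and its largest in Z15303, the animal with 2 counts of TLR7 at week 12. Gene by gene, the SD of the change was 1.53 for TLR7 but 0.37 for TLR10, against 0.17 to 0.45 for the 4 myeloid genes. The difference between the groups, myeloid minus the other pair, was 0.36 ± 0.73 (n = 5, SD), positive in 3 animals and negative in 2. At week 18 against pre-treatment the means were −0.20 ± 0.61 and −0.36 ± 0.74 with a difference of 0.16 ± 0.37, again positive in 3 and negative in 2. At week 18 against week 12 they were 0.20 ± 0.54 and 0.40 ± 0.58 with a difference of −0.20 ± 0.76, positive in 2 and negative in 3. In none of the comparisons was the difference between the receptor groups larger than its spread between animals.

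**Figure D4:**
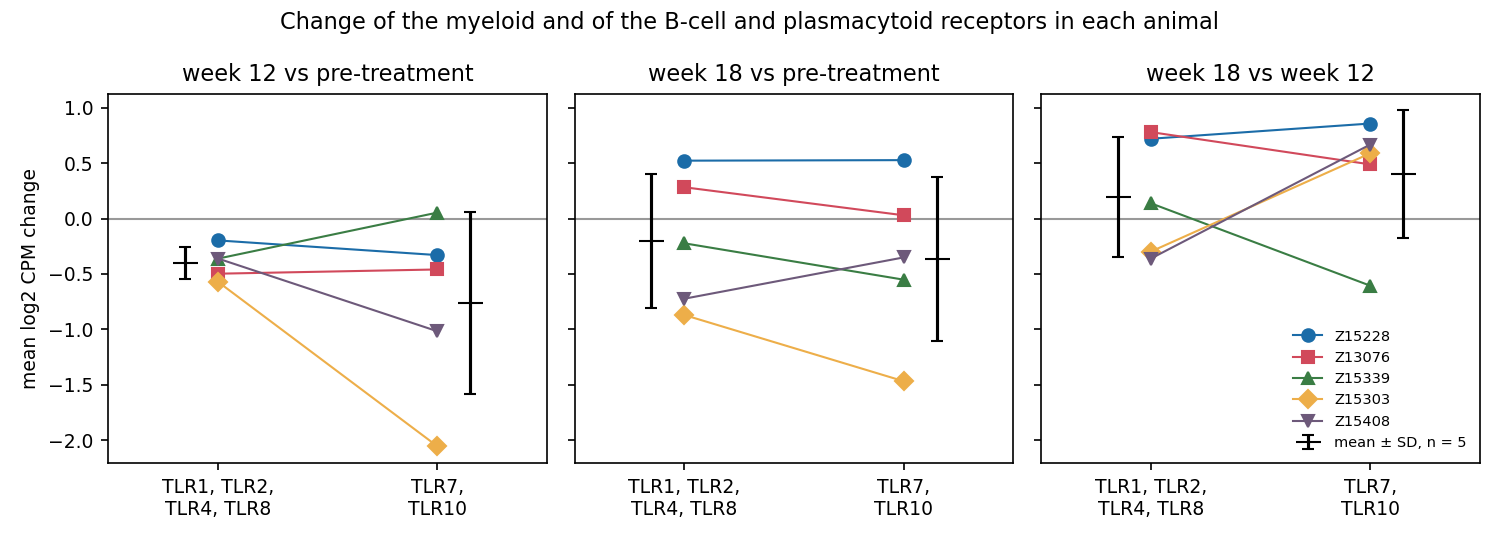
Mean log2 CPM change (y axis) of the myeloid receptors (left in each panel) and of TLR7 and TLR10 (right) in each animal, with the mean ± SD over 5 animals. At week 12 the myeloid changes lie between −0.57 and −0.20, and those of TLR7 and TLR10 between −2.05 and 0.053.

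At week 18 the mean change of the myeloid receptors split the animals by the dates of their libraries. The myeloid change against pre-treatment was 0.52 in Z15228 and 0.28 in Z13076, which have dates of their own. It was −0.22 in Z15339, −0.87 in Z15303 and −0.72 in Z15408, which share dates. TLR1, TLR2 and TLR4 each were lower in the 3 animals with shared dates and higher in the other 2, as were 8.49% of all features. Between week 12 and week 18, TLR4 split in the same way, as did 2.69% of all features. At week 18 against pre-treatment the mean log2 changes were −0.57 and 0.44 for TLR1, −0.75 and 0.45 for TLR2, and −0.53 and 0.72 for TLR4. For TLR10 they were −1.21 and 0.24, with animals of either sign in both groups. TLR8 did not split in this way, with means of −0.56 and −0.0097 and a lower value in Z13076 as well (−0.19). At week 12, in contrast, the mean changes of TLR2 were −0.79 in the 3 animals and −0.74 in the other 2, and those of TLR10 −1.25 and −0.80. What the dates mark is not given in the labels, and their part in the values was not tested.

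How much of the variation lay between animals differed among the receptors. Of the sum of squares of log2 CPM over the 15 libraries, differences between animals made up 89.5% for TLR3, 51.0% for TLR10, 50.5% for TLR1, 42.8% for TLR2, 29.9% for TLR8, 24.0% for TLR4 and 8.07% for TLR7. The median over all tested features was 51.9%. The time point made up 26.9% for TLR2 and 20.2% for TLR10, the highest of the 7, and 1.55% for TLR3, the lowest, where the median over all features was 6.23%. For TLR7, 85.1% was left to neither.

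Of the receptor pairs, TLR1 and TLR2 had the highest r across the 15 libraries (Pearson's r = 0.82, Spearman's rho = 0.90, r = 0.82 without the 2 farthest libraries and r = 0.70 within animals). Without the 2 farthest libraries TLR2 and TLR4 also had r = 0.82. Within animals TLR1 had a higher r with TLR4 (0.79) and with its close paralog TLR10 (0.71). TLR4 followed TLR1 (r = 0.65) and TLR2 (r = 0.64), and TLR8 followed TLR4 (r = 0.60). TLR7 and TLR10, the pair set against the myeloid receptors, had r = −0.12. The log2 CPM of TLR4 and of the summed classical monocyte markers had r = 0.49, and r = 0.76 within animals. These are descriptions over 5 animals with 3 libraries each. Among the 10766 tested genes with a symbol that are no members, the 3 whose pattern was most like that of TLR10 were FCRL5 (r = 0.87), which encodes an Fc receptor-like protein of B-cells, DMD (r = 0.83), which encodes dystrophin, and FAM49B (r = 0.82). For TLR1 they were MCMBP, EPB41L3 and CAPRIN1 (r = 0.92, 0.91 and 0.90) and for TLR2 they were RTN3, EPB41L3 and TMED5 (r = 0.90, 0.88 and 0.87), so EPB41L3 was near both. TLR4 was followed most closely by MEFV, which encodes the inflammasome protein pyrin, CYBRD1 and SAMD8 (r = 0.83, 0.83 and 0.82). TLR8 was followed by NXF1, TRAK1 and DENND1A (r = 0.83, 0.80 and 0.80), and TLR7 by SP2, EIF2AK2 and NOLC1 (r = 0.81, 0.79 and 0.77). EIF2AK2 encodes the double-stranded RNA-activated kinase PKR. The genes nearest to TLR3 were MXRA8, JAK3 and XPNPEP2 (r = 0.93, 0.90 and 0.90), of which MXRA8 and XPNPEP2 had r = 0.27 and 0.44 within animals and followed TLR3 mostly across animals.

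The other genes of the pathway were read from 5 lists that hold 89 genes, 81 of them found by symbol and 75 tested. In edgeR, 0 of the 75 passed an adjusted p of 0.05 in any of the 3 comparisons, and with DESeq2 and the same filter 1 passed at week 12 and at week 18, NFKBIZ in both cases. Co-receptors and proteins that deliver ligands or receptors had 20 genes tested, with medians of −0.068 at week 12 and −0.0077 at week 18 on the log2 scale. At week 12, 4 of the 20 were lower with an unadjusted p under 0.05 and 0 were higher, where 3.25% and 1.44% of all features were. CD180, a Toll-like receptor homolog of B-cells, was at 47.9 ± 14.6 CPM at pre-treatment and 31.3 ± 6.31 at week 12 (n = 5, SD). Its log2 fold change was −0.59 (SE 0.16, adjusted p = 0.449 by edgeR), lower in 5 of 5 animals (3.45% of all features). CTSS, a cathepsin that can cleave endosomal receptors, had −0.40 (SE 0.14, adjusted p = 0.769 by edgeR), and LY96, the lipopolysaccharide-binding partner of TLR4, had −0.44 (SE 0.17, adjusted p = 0.852 by edgeR). LBP, a plasma protein made by the liver, was listed at 0 in every library.

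Adaptors, kinases and ubiquitin ligases had 23 genes tested and medians of −0.11 at week 12 and −0.14 at week 18. At week 12, 4 were lower and 0 higher at an unadjusted p under 0.05, against 3.25% and 1.44% of all features. The adaptor MYD88, named here after its value was seen, had a log2 fold change of −0.23 (SE 0.13, adjusted p = 0.982 by edgeR). PIK3AP1, an adaptor that links receptors to phosphoinositide 3-kinase, had −0.50 (SE 0.16, adjusted p = 0.645 by edgeR). The kinases and kinase partners TBK1 and TAB3 had −0.46 and −0.42 (SEs 0.15 and 0.19). Transcription factors had 11 genes tested and medians of −0.12 and −0.036, with 3 lower and 0 higher. These were REL (−0.42), a subunit of NF-kappa-B, ATF3 (−0.46) and IRF8 (−0.38), the 3 of smallest unadjusted p on the list. Each was lower in 5 of 5 animals (3.45% of all features). Negative regulators had 13 genes tested and medians of −0.014 and 0.00027, with 2 lower and 1 higher. PELI1, a ubiquitin ligase placed on this list that can also promote the signal, had −0.35. IRAK3, the kinase-like inhibitor of the pathway, had −0.49. Like PELI1, it was lower in 5 of 5 animals (3.45% of all features). The inhibitory receptor CD300A had 0.30, higher in 4 of 5.

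The list of cytokine and chemokine genes that the receptors can induce also held NFKBIZ, which is neither. It had 8 genes tested, with medians of −0.33 at week 12 and −0.31 at week 18. At an unadjusted p under 0.05 at week 12, 1 was lower, NFKBIZ, and 0 were higher (3.25% and 1.44% of all features). NFKBIZ, a nuclear regulator of NF-kappa-B that receptor ligands induce, was at 161 ± 43.8 CPM at pre-treatment, 101 ± 33.0 at week 12 and 103 ± 23.7 at week 18 (n = 5, SD). Its log2 fold changes were −0.67 (SE 0.12, adjusted p = 0.101 by edgeR) and −0.63 (SE 0.12, adjusted p = 0.0599 by edgeR). Each of the 5 animals was lower at both, as was seen in 3.45% of all features at week 12 and 3.49% at week 18. In DESeq2 with the same filter it passed at week 12 (adjusted p = 0.00096 by DESeq2) and at week 18 (adjusted p = 0.0017 by DESeq2). The paper had already listed NFKBIZ as lower at week 12 from these same data. CXCL10, an interferon-induced chemokine, had −0.59 at week 12 and −1.03 at week 18 (SEs 0.35 and 0.36, adjusted p = 0.982 and 0.65 by edgeR). TNF had −0.40 and 0.040 (SEs 0.24 and 0.23). The median of the 7 receptors at week 12, −0.34, was close to that of the cytokine list and below those of the other 4 lists, a difference between lists that was not tested.

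**Figure D5:**
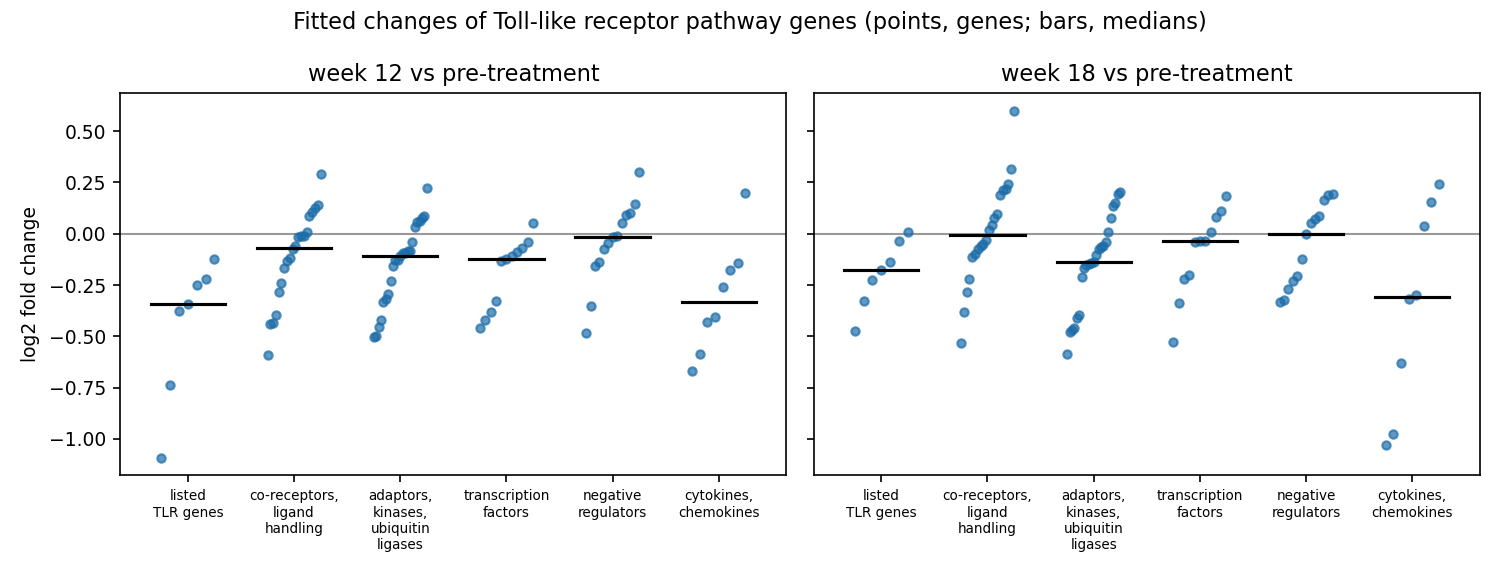
Log2 fold changes (y axis) of the 7 receptor genes and of the tested genes of 5 pathway lists at week 12 and week 18 against pre-treatment, with a point for each gene and a bar at the median. The medians at week 12 are −0.34 for the receptors, −0.33 for the cytokine list, which includes NFKBIZ, and −0.12 to −0.014 for the other lists.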

How the data were processed

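The authors prepared the libraries from total RNA of PBMCs with SMART-Seq v4 amplification and Nextera XT, aligned reads with STAR 2.7.9a to *M. nemestrina* Ensembl release 95 and counted them per gene with STAR. The deposited values are these raw counts, whole numbers with no normalization or filter, and whether counting used strand is not given in the sources used here. DESeq2 was the authors' own test. The labels gave the animal and time point of each library. Features were matched by symbol, and positions, lengths and sequences are not given because no genome or sequence table of this build was used. CPM are therefore compared for a gene between libraries, not between genes.

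Counts were scaled with edgeR's TMM method (edgeR 4.0.16, R 4.3.3), log2 CPM used a prior count of 2, and features were filtered with filterByExpr (minimum count 10). Each comparison used edgeR's quasi-likelihood F test over all 15 libraries with the animal as a block, and adjusted p values are by Benjamini-Hochberg over the 12880 features with a threshold of 0.05. The stated methods do not say whether animals were paired, so the fit without the block was an alternative. The pairing comes from the animal labels. The 15 pairs of libraries from the same animal correlated in their deviations from the group means with r between 0.351 and 0.683. Standard errors (SE) were obtained from F, as the size of the log2 fold change over its square root. The alternatives were DESeq2 1.42.0, limma-voom (limma 3.58.1), other scalings and filters, each animal left out, and animals grouped by library date. The test script was checked on simulated counts. Libraries of an animal are separate samples in the labels, and each time point has 5. The genes named from the pathway lists are the 3 of smallest unadjusted p at week 12, and the genes of like pattern the 3 of highest r. The members and lists were chosen with earlier results of these data known. Exact intervals cover counting error only.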

Additional observations from a re-analysis of the deposited data

Results flagged for a closer look

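TLR10 at week 12 was at 8.41 CPM in Z15228, while the other 4 animals lay between 1.20 and 2.54 CPM, and this animal stood apart from the rest. Its log2 change from pre-treatment to week 12 was −0.42, against −1.31 to −1.19 in the other 4. Among the 45 groups of 5 values examined for the receptors, these 2 were set apart, and chance gives about 1 in 20.

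The 3 animals whose libraries share dates and the other 2 went in opposite directions in 4 cases. The difference in mean log2 change at week 18 against pre-treatment, shared dates minus the others, was −1.01 for TLR1, −1.21 for TLR2 and −1.25 for TLR4, and at week 18 against week 12 it was −1.20 for TLR4. These differences were not tested. The same split in the same direction was seen in 8.49% of all features at week 18 against pre-treatment and in 2.69% at week 18 against week 12.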

How the results depend on the processing

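The number of receptors past an adjusted p of 0.05 was 0 in every fit tried except with no filter at week 12. In the fit with a minimum count of 30, TLR7 was not among the features tested. With no filter 2 of 7 passed at week 12, TLR2 (log2 fold change −0.73) and TLR10 (−1.08), beside 83 of 20732 features. The cause was not tested. Features past the threshold at week 12 numbered 1, but 0 with no replicate block, 26 with DESeq2 and 24 with its own filter, 3 with limma-voom, 83 with no filter, 7 in the 3 animals with shared dates, 0 in the other 2 and 0 to 6 with an animal left out. At week 18 they numbered 1, but 0 with no replicate block, 43 with DESeq2 under either filter, 8 with limma-voom, 10 with library totals, 136 with no filter, 7 in the 3 animals, 0 in the other 2 and 0 to 17 with an animal left out. At week 18 against week 12 there were 0, but 1 with DESeq2 under either filter and 5 with no filter. Leaving out the block changed no receptor's call.

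TLR2 and TLR10 at week 12 kept their direction throughout, from −0.85 to −0.55 and −1.35 to −0.98 with an animal left out. Signs turned elsewhere. In the 2 animals with their own dates, TLR3 (0.092) and TLR7 (0.093) were higher at week 12, TLR1 (0.45), TLR2 (0.46), TLR3 (0.054), TLR7 (0.51) and TLR10 (0.25) at week 18, and from week 12 to week 18 TLR3 was at −0.038 and TLR8 at 0.39. In the 3 with shared dates, TLR4 at week 18 was at −0.52, and TLR2 and TLR4 were at −0.038 and −0.29 from week 12 to week 18. TLR4 at week 18 was also −0.039 with no replicate block, −0.040 with limma-voom and −0.015 with library totals. With an animal left out, TLR7 at week 12 ranged from −0.79 to 0.17, and at week 18 TLR1 from −0.32 to 0.044, TLR3 from −0.074 to 0.0074, TLR4 from −0.23 to 0.20 and TLR7 from −0.64 to 0.14. TLR2 (−0.48 to −0.030) and TLR10 (−0.85 without Z13076, −0.17 without Z15339) stayed below 0 there. From week 12 to week 18, TLR7 ranged from −0.30 to 0.51 and TLR8 from −0.28 to 0.087. The difference between receptor groups at week 12 (0.36) was 0.084 to 0.56 with an animal left out, lowest without Z15303, and that at week 18 (0.16) was 0.051 to 0.29. From week 12 to week 18 (−0.20) it was −0.44 to 0.0027, above 0 without Z15408, and 0.077 in the 2 animals with their own dates. The count of 3 receptors lower in every animal at week 12 was 2 with library totals, an alternative chosen after seeing the data. The myeloid group as reported already lacks TLR5 and TLR6, so leaving them out gives no other value.

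Depth limits TLR7 (2 to 37 counts per library), TLR3 (8 to 42) and TLR10 (6 to 110), and 5 animals cannot reach an exact p below 0.0625.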

Other observations

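These values were picked after they were seen. CD14, the co-receptor of TLR4, had log2 fold changes of 0.0078 at week 12 and 0.60 at week 18 against pre-treatment (SEs 0.20 and 0.20, adjusted p = 0.999 and 0.589 by edgeR). All 5 animals had more CD14 at week 18 than at week 12 (2.99% of all features), where TLR4 was higher in 2 of 5. TLR8 per 1000 CPM of classical monocyte markers was 3.83 to 6.70 before treatment, 4.11 to 6.47 at week 12 and 2.98 to 5.76 at week 18, and was lower at week 18 than at each earlier time point in 5 of 5 animals, a ratio that was not tested. ATF3, a transcription factor induced by Toll-like receptor ligands, was lower at week 12 than before treatment in 5 of 5 animals (3.45% of all features). At week 18 it stood above its week 12 value in all 5 (2.99%). It was at 15 ± 2.83, 10.9 ± 1.78 and 14.7 ± 2.92 CPM (n = 5, SD) at the 3 time points. The adjusted p of ATF3 was 0.696 at week 12 against pre-treatment and 1.00 at week 18 against week 12 by edgeR.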
